A study of Homo sapiens with 40 samples.

Results

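The malate-aspartate shuttle was followed through 8 genes in HEK293T cells, a human embryonic kidney line. The 8 genes are SLC25A12, SLC25A13, SLC25A11, GOT1, GOT2, MDH1, MDH2 and GPD2. They were chosen by name with earlier results of these data known, so counts of members called are descriptions. The count table holds 28278 gene symbols, of which 16739 genes had enough reads to test. All 8 passed the filter on low counts. RNA was read from 40 libraries in 10 groups of 4, which are 5 lines with antimycin A at 40 nM or with vehicle, for 6 hours. Antimycin A inhibits complex III of the respiratory chain. The dMTS-DELE1 cells were SLC25A12 knockout cells given SLC25A12-F137S and dMTS-DELE1, a prefix the labels do not spell out. The F137S cells were knockout cells given SLC25A12-F137S alone. A further line is labelled as knockout cells given SLC25A12-WT. The KO-vector cells were knockout cells with vector, and the WT-vector cells were wild-type cells with vector. The labels give neither the promoter that drives the introduced genes nor whether a line is 1 clone or a pool. They call the libraries biological replicates without naming separate cultures, so the p-values measure the spread between these libraries, which may be technical.

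The shuttle carries the reducing power of cytosolic NADH into mitochondria, whose inner membrane NADH itself does not cross. In the cytosol MDH1 turns oxaloacetate into malate, SLC25A11 brings malate in against 2-oxoglutarate, and MDH2 turns it back into oxaloacetate in the matrix. GOT2 and GOT1, the matrix and cytosolic aspartate aminotransferases, return the carbon as aspartate, which SLC25A12 (aralar) or SLC25A13 (citrin) exports against glutamate. GPD2 belongs to the parallel glycerol phosphate shuttle and hands electrons to the respiratory chain directly. Because complex III lies downstream of both shuttles, antimycin blocks the use of the electrons they deliver, and the aspartate exported by the shuttle feeds protein and nucleotide synthesis.

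Levels are CPM, counts per 1e6 counts, with the library size taken over tested genes and corrected by TMM factors. A gene is said to have risen, fallen or differed where its adjusted p (Benjamini-Hochberg, over all 16739 genes) was < 0.05 by edgeR's quasi-likelihood method. Log2 fold changes carry a standard error and rest on 4 libraries per group. Library totals ran from 30730335 to 31965438 counts. Since these are bulk samples, fewer cells with a transcript and less transcript per cell cannot be told apart.

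SLC25A12 lies on the minus strand of chromosome 2 (chr2:171784370-171999859, GRCh38, GENCODE 29), where its main transcript has 18 exons. The phenylalanine codon that F137S names is in exon 5 at chr2:171844423-171844425. The reference sequence around it is shown because every high SLC25A12 value in these data comes from cells given the changed cDNA. The capitals mark that codon.
SLC25A12 at F137S: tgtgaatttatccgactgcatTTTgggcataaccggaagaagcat
The coding sequences of SLC25A12 and SLC25A13 are 71.6% identical in alignment, with a longest identical run of 29 bases. GOT1 and GOT2 share 58.2% and MDH1 and MDH2 share 52.0%. No 100-base window of a member's main transcript occurs in a transcript of another gene (0.0% of windows).

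Promoters of 4 members are shown because their transcripts gave the opposite antimycin responses described further on, GOT1 and SLC25A11 upward and SLC25A12 and SLC25A13 downward in WT-vector cells. MDH2 also rose there, and its window is not shown. The windows run from 250 bases before to 50 bases after the RefSeq start on GRCh38.p14 and are written on the gene's own strand. All 4 genes lie on the minus strand, at chr10:99430575-99430874 for GOT1, chr17:4939997-4940296 for SLC25A11, chr2:171894195-171894494 for SLC25A12 and chr7:96322049-96322348 for SLC25A13. Capitals mark matches to 7 motifs on either strand, some of which abut or overlap.
GOT1 promoter: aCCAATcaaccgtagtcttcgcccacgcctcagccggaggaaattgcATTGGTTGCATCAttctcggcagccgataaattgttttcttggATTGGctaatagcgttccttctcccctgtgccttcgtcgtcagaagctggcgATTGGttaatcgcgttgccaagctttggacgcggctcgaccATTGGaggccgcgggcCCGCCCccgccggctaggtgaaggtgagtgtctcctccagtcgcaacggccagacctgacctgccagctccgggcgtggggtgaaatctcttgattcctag
SLC25A11 promoter: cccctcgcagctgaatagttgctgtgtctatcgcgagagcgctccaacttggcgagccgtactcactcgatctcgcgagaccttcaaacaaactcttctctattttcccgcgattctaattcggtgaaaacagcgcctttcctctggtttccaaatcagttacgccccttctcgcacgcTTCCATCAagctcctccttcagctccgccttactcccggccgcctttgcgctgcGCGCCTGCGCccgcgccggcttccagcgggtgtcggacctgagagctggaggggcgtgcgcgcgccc
SLC25A12 promoter: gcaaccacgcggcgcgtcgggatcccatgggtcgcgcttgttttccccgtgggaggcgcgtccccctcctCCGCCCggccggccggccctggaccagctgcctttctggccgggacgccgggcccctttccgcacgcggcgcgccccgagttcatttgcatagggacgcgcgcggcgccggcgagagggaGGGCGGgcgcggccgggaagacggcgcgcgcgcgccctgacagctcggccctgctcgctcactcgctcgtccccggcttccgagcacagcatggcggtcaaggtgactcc
SLC25A13 promoter: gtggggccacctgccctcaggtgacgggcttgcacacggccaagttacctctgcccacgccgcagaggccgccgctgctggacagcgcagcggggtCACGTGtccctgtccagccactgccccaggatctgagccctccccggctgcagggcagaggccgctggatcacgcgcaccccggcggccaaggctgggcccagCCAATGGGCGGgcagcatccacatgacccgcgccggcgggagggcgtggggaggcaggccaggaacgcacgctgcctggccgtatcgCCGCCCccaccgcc

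The motif TGATGNAA, the core of the element that C/EBP and ATF4 family factors bind, had a match in the GOT1 window (TTGCATCA, its reverse complement) that begins 198 bases before the start. SLC25A11 also had 1 (TTCCATCA) 71 bases before its start. That motif occurs in 3.62% of 35116 promoter windows of the same length. The GOT1 window further held 5 matches to CCAAT, found in 34.6% of windows, and the SLC25A11 window held 1 to the NRF1 motif (GCGCCTGCGC), which 5.78% of windows hold. The SLC25A12 window had only matches to the SP1 motif GGGCGG (45.0% of windows), and the SLC25A13 window had this motif as well. The SLC25A13 window also held the E-box CACGTG (7.26% of windows) and a CCAAT box. Also searched were TGACGTCA, the CRE (1.85% of windows), and CCGGAAG, the ETS motif (10.3%), which MDH2 carried at 2 positions. MDH2, which rose under antimycin in WT-vector cells (log2 fold change 0.09 ± 0.02), held no match to TGATGNAA. A match says only that the letters are there.

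The identity of the lines was checked first, since the libraries of 1 label lay with WT-vector cells. In libraries labelled as knockout plus SLC25A12-WT, SLC25A12 stood at 38.9, 38.4, 38.9 and 39.2 CPM in vehicle, against 3.43, 2.99, 2.96 and 2.96 CPM in KO-vector cells. WT-vector cells held 39.9, 36.1, 39.9 and 39.0 CPM. The labelled libraries thus lay inside the range of WT-vector cells and did not overlap KO-vector cells. A level above KO-vector cells is also what the label names, so SLC25A12 alone does not decide. Of 147 other genes that differed by a log2 fold change of at least 2 between KO-vector and WT-vector cells in vehicle, the labelled libraries under antimycin were nearer to WT-vector cells for 144 and nearer to KO-vector cells for 3. By the same count F137S cells were nearer to KO-vector cells for 135 genes, and dMTS-DELE1 cells for 129. Between the labelled libraries and WT-vector cells edgeR called 0 genes in vehicle (0% of those tested), with 778 at an unadjusted p < 0.05, and DESeq2's Wald test called 0. Under antimycin both tools called 1 gene (0.00597%), and 0 of the 8 members were called in either treatment by either tool, with 0 at an unadjusted p < 0.05. Against KO-vector cells 6 members were higher in the labelled libraries in vehicle and 8 under antimycin, where 25.3% and 24.7% of tested genes were higher. Without SLC25A12 the counts were 5 and 7. These libraries are therefore given under their label and enter no statement about the return of SLC25A12.

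Markers chosen for the cell line were present. In WT-vector cells in vehicle, VIM stood at 404 CPM, NEFM, a neurofilament gene, at 225, KRT8 at 85.7, KRT18 at 47.2 and PAX2 at 2.89. Among genes of differentiated kidney, UMOD and AQP2 were at 0, and NPHS1, SLC12A1 and SLC34A1 had at most 0.108 CPM. Among markers of other cell types, COL1A1 had 18.4 CPM, and PTPRC, CD3E, COL1A2, ALB and PECAM1 had at most 0.124. The lines also differed in these markers, with NEFM at 73.8 CPM in KO-vector cells and 225 in WT-vector cells in vehicle. What part such differences between the lines have in the comparisons of lines was not tested.

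SLC25A12 spanned more than 3 orders of magnitude across the lines. In dMTS-DELE1 cells it stood at 4231, 4356, 4257 and 4243 CPM under antimycin, against 3695, 3745, 3730 and 3693 CPM in vehicle. In F137S cells it stood at 1882, 1896, 1890 and 1963 CPM under antimycin, against 1858, 1867, 1860 and 1826 CPM in vehicle. KO-vector cells held 2.39, 3.00, 2.66 and 2.97 CPM under antimycin, and the vehicle values given above for these cells came from 94 to 108 counts per library. The order of the levels was dMTS-DELE1, F137S, WT-vector and KO-vector cells in both treatments, and no 2 of these lines overlapped. Reads from the introduced cDNA and from the native gene cannot be told apart in the counts, and an RNA level does not measure the protein.

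**Figure D1:**
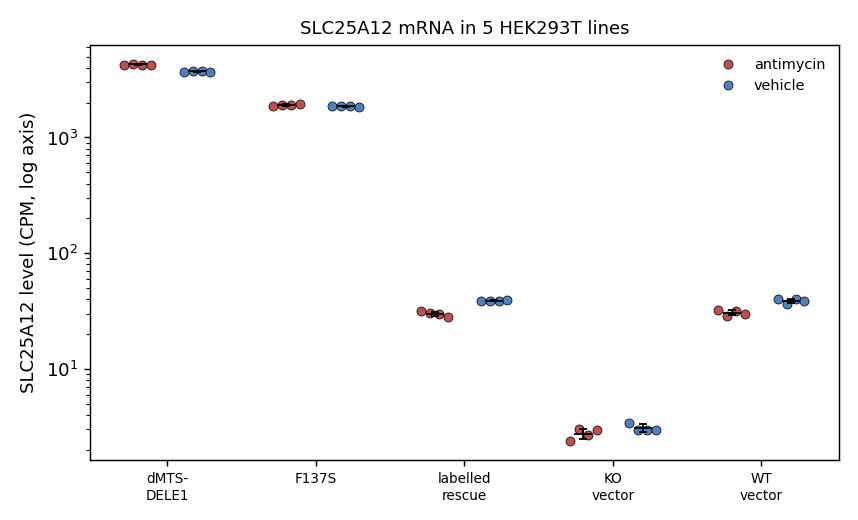
SLC25A12 level in CPM on a log axis for each of 40 libraries, with antimycin left of vehicle within each line and bars for the mean ± SD of 4 libraries. The 2 lines labelled with an SLC25A12-F137S cDNA lie at 1826 CPM and above. The libraries labelled as knockout plus SLC25A12-WT, shown on the axis as labelled rescue, lie with WT-vector cells.

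Members besides the knocked-out gene were lower in KO-vector cells. In KO-vector cells in vehicle, 6 of 8 members were lower than in WT-vector cells and 0 were higher, where 25.6% of all tested genes were lower and 22.7% higher. Without SLC25A12, whose loss the knockout itself sets, 5 were lower and 0 higher. SLC25A12 averaged 3.08 ± 0.231 CPM in KO-vector cells and 38.7 ± 1.82 CPM in WT-vector cells (SD, n = 4 each), a log2 fold change of -3.65 ± 0.05 (edgeR adjusted p = 3.7e-64). The RNA was thus 12.5-fold lower and remained detectable in all 4 KO-vector libraries. The standard error of this change understates the sampling error, as the KO-vector counts were low.

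SLC25A11, the 2-oxoglutarate and malate carrier, differed most among the other members. It stood at 87.2, 91.8, 90.1 and 90.3 CPM in KO-vector cells and at 119.8, 113.8, 116.2 and 118.2 CPM in WT-vector cells. The libraries of the 2 lines did not overlap, and the log2 fold change was -0.38 ± 0.03 (edgeR adjusted p = 6.3e-20). SLC25A13, the second aspartate and glutamate carrier, stood at 118.3, 114.6, 117.9 and 114.2 CPM in KO-vector cells and at 134.7, 134.4, 128.1 and 132.4 CPM in WT-vector cells. It too was lower without overlap, by a log2 fold change of -0.19 ± 0.03 (edgeR adjusted p = 1.1e-08), so the paralog did not stand higher where SLC25A12 was lost.

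Among the enzymes, MDH1 averaged 219 ± 6.84 CPM in KO-vector cells and 245 ± 1.41 in WT-vector cells (-0.16 ± 0.02, edgeR adjusted p = 3.7e-09). The mitochondrial enzymes GOT2 (-0.11 ± 0.02) and MDH2 (-0.10 ± 0.02) were lower by less, again without overlap between the lines. GOT1 and GPD2 did not pass in vehicle. GOT1 averaged 71.6 ± 1.35 CPM in KO-vector cells and 72.9 ± 1.01 in WT-vector cells, and GPD2 averaged 68.0 ± 1.87 CPM in KO-vector cells and 68.1 ± 2.59 in WT-vector cells.

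Under antimycin all 8 members were lower in KO-vector than in WT-vector cells, where 24.5% of all tested genes were lower and 23.5% higher. Without the knocked-out SLC25A12 the count was 7. SLC25A11 again led the 7 other members, with 104 ± 3.11 CPM in KO-vector cells and 124 ± 1.39 in WT-vector cells (-0.25 ± 0.03, edgeR adjusted p = 1.7e-12). SLC25A13 (-0.10 ± 0.03), GOT2 (-0.12 ± 0.02), MDH1 (-0.11 ± 0.02) and MDH2 (-0.10 ± 0.02) were lower without overlap. GOT1 (-0.08 ± 0.03, edgeR adjusted p = 0.021) and GPD2 (-0.11 ± 0.04, edgeR adjusted p = 0.011) were lower with overlapping libraries. The median over the 8 members was -0.14 in vehicle and -0.11 under antimycin, against -0.01 and -0.00136 over all tested genes. The 2 comparisons share their lines, so the second is not independent of differences between the lines that the first also holds.

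The position of SLC25A11 gave a further description of the knockout comparison. It lies on the short arm of chromosome 17 (chr17:4937130-4940251, minus strand, GENCODE 29), and of the 5 nearest tested genes on each side 6 of 10 were lower, 1 was higher and 3 missed the threshold for KO-vector against WT-vector cells in vehicle. Over all tested genes 25.6% were lower and 22.7% higher. The median log2 fold change of the 10 was -0.18, against -0.01 over all genes. PFN1, which encodes the actin-binding protein profilin (-0.28 ± 0.03), CAMTA2 (-0.28 ± 0.04) and PLD2, a phospholipase (-0.26 ± 0.05), were lower, as SLC25A11 was, and C17orf107 was higher (1.04 ± 0.35). Of the 10 nearest tested genes around SLC25A12, 4 were higher, 1 was lower and 5 did not pass, beside 22.7% higher and 25.6% lower over all tested genes, with a median log2 fold change of 0.03. DLX1, a homeobox gene, was the one that was lower (-0.47 ± 0.06), and TLK1, a kinase gene, led those that were higher (0.34 ± 0.03). Whether the neighbourhood of SLC25A11 has a part in its lower level was not tested.

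**Figure D2:**
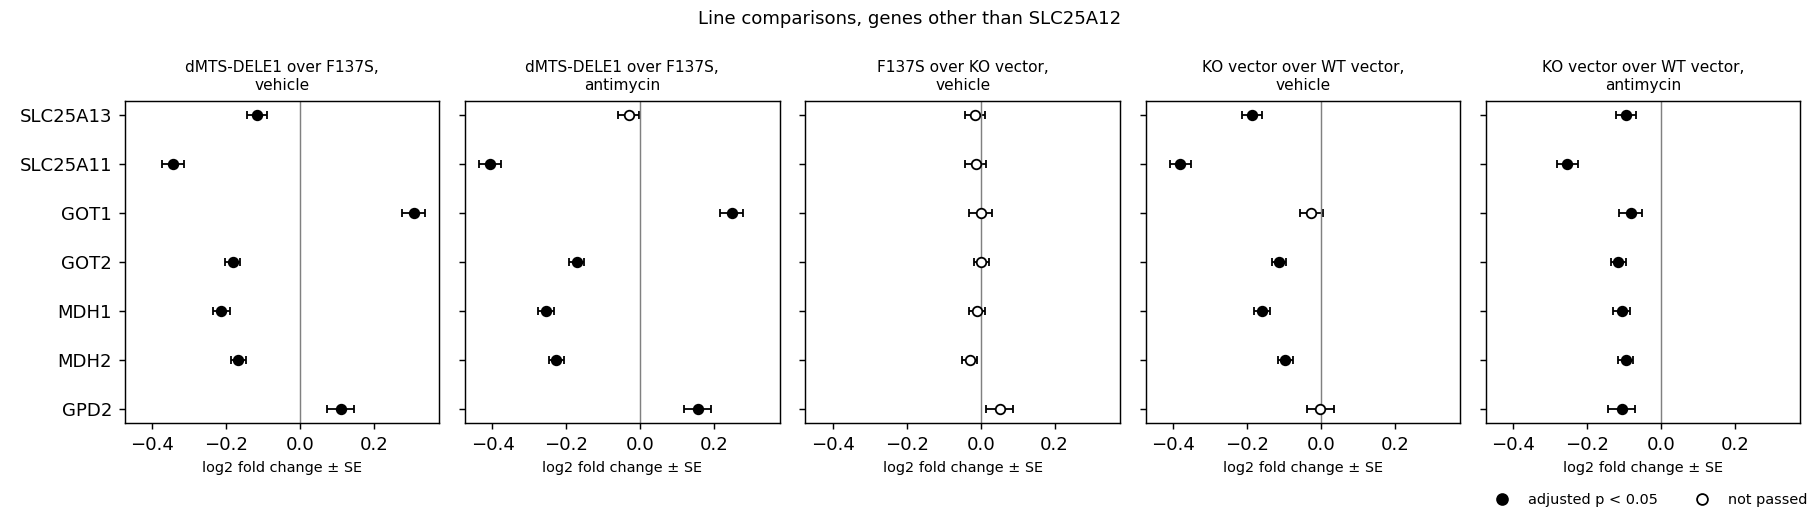
Log2 fold change ± SE of the 7 members other than SLC25A12 in 5 comparisons of lines, with filled points for an edgeR adjusted p < 0.05. All 7 points for F137S over KO-vector cells are open, while KO-vector over WT-vector cells has only negative filled points and dMTS-DELE1 over F137S cells has GOT1 and GPD2 on the positive side.

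SLC25A12 was higher in F137S than in KO-vector cells, and no other member was called. In vehicle SLC25A12 averaged 1853 ± 18.3 CPM in F137S cells and 3.08 ± 0.231 in KO-vector cells (log2 fold change 9.23 ± 0.03, edgeR adjusted p = 2.4e-100). Under antimycin the log2 fold change was 9.43 ± 0.03. Both standard errors understate the sampling error, as the KO-vector counts were low. In each treatment 1 of 8 members was called, each time SLC25A12, where 0.0836% of tested genes were called in vehicle and 0.114% under antimycin. DESeq2's Wald test also called 1, and at an unadjusted p < 0.05 by edgeR the other 7 had 0 in vehicle and 2 under antimycin. The 95% intervals of the log2 fold changes of the other 7 members lay between -0.07 and 0.12 in vehicle and between -0.11 and 0.11 under antimycin. SLC25A11, for example, stood at 87.2, 90.6, 87.4 and 90.8 CPM in F137S cells and at the 87.2 to 91.8 CPM given above in KO-vector cells. Apart from SLC25A12, the members that were lower in KO-vector than in WT-vector cells were therefore not called higher in F137S cells than in KO-vector cells. A p that misses the threshold does not show equal levels, and the intervals bound the difference.

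Cells given dMTS-DELE1 besides F137S differed in all 8 members in vehicle. There 3 were higher and 5 lower than in F137S cells, where 17.7% of tested genes were higher and 24.1% lower. Without SLC25A12, which both lines were given as a cDNA, 2 were higher and 5 lower. DELE1 itself, which links stressed mitochondria to the kinase HRI, had 5344 CPM in dMTS-DELE1 cells and 45.9 CPM in F137S cells. SLC25A12 averaged 3716 ± 25.7 CPM in dMTS-DELE1 cells and 1853 ± 18.3 in F137S cells, so the lines that differ by name in DELE1 also differed 2.01-fold in SLC25A12 RNA (log2 fold change 1.00 ± 0.02, edgeR adjusted p = 1.5e-53). What part the SLC25A12 difference has in the other members was not tested.

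GOT1, the cytosolic aminotransferase, stood at 91.4, 88.5, 88.9 and 85.6 CPM in dMTS-DELE1 cells in vehicle, against 72.3, 69.4, 70.2 and 74.5 CPM in F137S cells. Every dMTS-DELE1 library lay above every F137S library, and the log2 fold change was 0.31 ± 0.03 (edgeR adjusted p = 1.1e-13). GOT2, the matrix counterpart, went the other way. It stood at 281.7, 274.0, 272.3 and 273.1 CPM in dMTS-DELE1 cells and at 308.9, 312.8, 312.7 and 314.8 CPM in F137S cells (-0.18 ± 0.02, edgeR adjusted p = 3.5e-12).

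SLC25A11 was lower again, at 71.1, 73.4, 67.0 and 69.2 CPM in dMTS-DELE1 cells and at the 87.2 to 90.8 CPM given above in F137S cells. The lines did not overlap (-0.34 ± 0.03, edgeR adjusted p = 1.1e-16), and SLC25A11 in dMTS-DELE1 cells was the lowest of the 5 lines. MDH1 (-0.21 ± 0.02), MDH2 (-0.17 ± 0.02) and SLC25A13 (-0.12 ± 0.03) were also lower without overlap. GPD2 was higher with overlapping libraries, at 77.7, 75.0, 81.7 and 69.8 CPM in dMTS-DELE1 cells and 69.1, 71.4, 72.4 and 69.1 CPM in F137S cells (0.11 ± 0.04, edgeR adjusted p = 0.0099). That call was lost without the third dMTS-DELE1 vehicle library (edgeR adjusted p = 0.13).

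Under antimycin 3 members were higher and 4 lower in dMTS-DELE1 than in F137S cells, where 25.5% of tested genes were higher and 28.8% lower. Without SLC25A12 the counts were 2 and 4. GOT1 averaged 97.8 ± 1.84 CPM in dMTS-DELE1 cells and 82.4 ± 2.28 in F137S cells (0.25 ± 0.03, edgeR adjusted p = 7.7e-11). SLC25A11 averaged 76.2 ± 0.727 CPM in dMTS-DELE1 cells and 101 ± 4.46 in F137S cells (-0.41 ± 0.03, edgeR adjusted p = 5.7e-21). MDH1 (-0.26 ± 0.02), MDH2 (-0.23 ± 0.02) and GOT2 (-0.17 ± 0.02) were lower, SLC25A12 (1.16 ± 0.02) and GPD2 (0.16 ± 0.04) were higher, and SLC25A13 did not pass (-0.03 ± 0.03, edgeR adjusted p = 0.35).

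**Figure D3:**
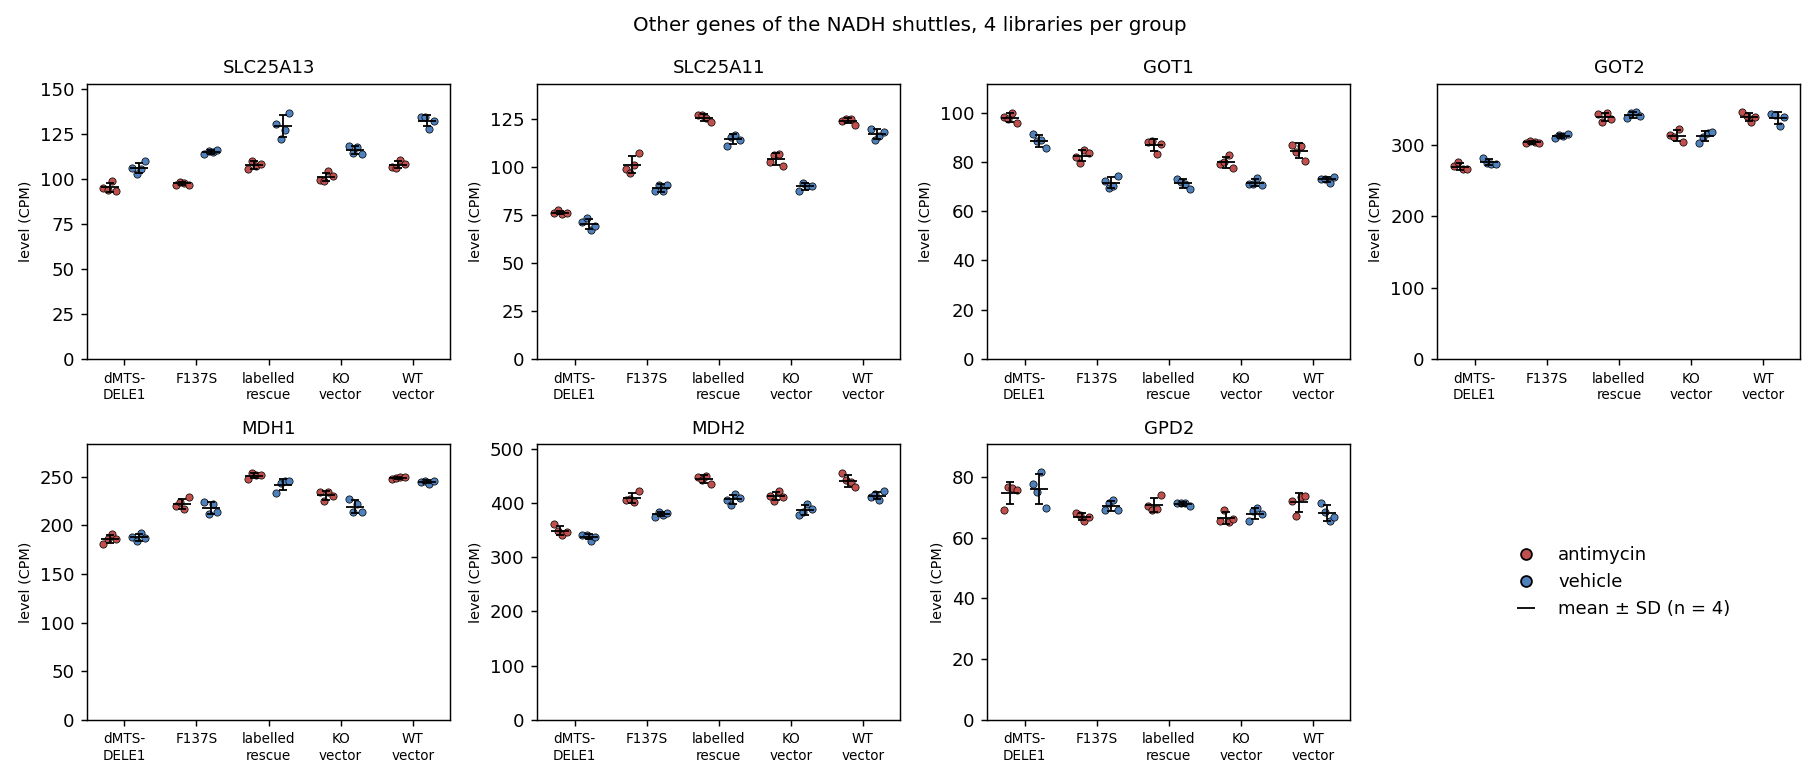
Level in CPM of the 7 members other than SLC25A12 in 40 libraries, 1 panel per gene with the axis from 0, antimycin left of vehicle within each line, and bars for the mean ± SD of 4 libraries. SLC25A13 is lower under antimycin in each of 5 lines, SLC25A11 and GOT1 are higher, and GOT2 and GPD2 overlap or lie close.

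Antimycin moved the shuttle genes in both directions and by small amounts. In WT-vector cells 3 of 8 members rose and 2 fell, where 25.5% of tested genes rose and 26.4% fell, so the share of members called was near that of all genes. SLC25A12 stood at 32.5, 28.6, 31.4 and 30.1 CPM under antimycin and at 36.1 to 39.9 CPM in vehicle. The treatments did not overlap, and the native gene fell by 0.34 ± 0.03 on the log2 scale (edgeR adjusted p = 1.0e-15). SLC25A13 stood at 106.9, 106.4, 110.7 and 108.3 CPM under antimycin and at 128.1 to 134.7 CPM in vehicle, and it fell as well (-0.29 ± 0.03, edgeR adjusted p = 1.5e-15).

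GOT1 stood at 87.0, 83.9, 86.6 and 80.4 CPM under antimycin in WT-vector cells, against 73.2, 73.1, 71.5 and 73.9 CPM in vehicle. All treated libraries lay above all vehicle libraries (0.21 ± 0.03, edgeR adjusted p = 1.4e-08). SLC25A11 (0.08 ± 0.03, edgeR adjusted p = 0.0092) and MDH2 (0.09 ± 0.02, edgeR adjusted p = 5.6e-05) rose by less. GOT2, MDH1 and GPD2 did not pass. GPD2 averaged 71.7 ± 3.06 CPM under antimycin and 68.1 ± 2.59 in vehicle (0.07 ± 0.04, edgeR adjusted p = 0.083).

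Under antimycin SLC25A13 fell and GOT1 and SLC25A11 rose in the libraries of all 5 labelled lines, whereas SLC25A12 fell in WT-vector cells and the labelled libraries and rose in dMTS-DELE1 cells. In KO-vector cells 4 members rose and 1 fell, where 26.4% of tested genes rose and 24.7% fell. SLC25A11 rose (0.21 ± 0.03) to 102.3, 106.3, 106.8 and 100.4 CPM under antimycin, against 87.2 to 91.8 CPM in vehicle. GOT1 (0.16 ± 0.03), MDH2 (0.09 ± 0.02) and MDH1 (0.08 ± 0.02) rose, and SLC25A13 fell (-0.20 ± 0.03). The residual SLC25A12 RNA did not pass (-0.16 ± 0.08, edgeR adjusted p = 0.19).

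In F137S cells 3 members rose and 1 fell, where 26.3% of tested genes rose and 24.9% fell. SLC25A11 (0.18 ± 0.03), GOT1 (0.20 ± 0.03) and MDH2 (0.11 ± 0.02) rose, and SLC25A13 fell (-0.24 ± 0.03). In dMTS-DELE1 cells 3 rose and 1 fell, where 17.6% of tested genes rose and 17.3% fell. Without SLC25A12, given to these cells as a cDNA, 2 rose and 1 fell. SLC25A12 (0.20 ± 0.02), GOT1 (0.14 ± 0.03) and SLC25A11 (0.12 ± 0.03) rose, SLC25A13 fell (-0.15 ± 0.03), and MDH2 did not pass (0.05 ± 0.02, edgeR adjusted p = 0.057).

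In the libraries labelled as knockout plus SLC25A12-WT 4 members rose and 2 fell, where 25.9% of tested genes rose and 26.4% fell. SLC25A12 (-0.38 ± 0.03) and SLC25A13 (-0.26 ± 0.03) fell, and GOT1 (0.28 ± 0.03), SLC25A11 (0.14 ± 0.03), MDH2 (0.13 ± 0.02) and MDH1 (0.05 ± 0.02) rose. The MDH1 call was lost without the first labelled vehicle library (edgeR adjusted p = 0.19). Across the 5 labelled lines SLC25A13 fell, and GOT1 and SLC25A11 rose, in 5 of 5. By edgeR, GOT2 and GPD2 were called in 0 of 5. Because the labelled libraries lay with WT-vector cells, these are not 5 separate lines by expression. The share of all tested genes called alike in all 5 was not computed.

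**Figure D4:**
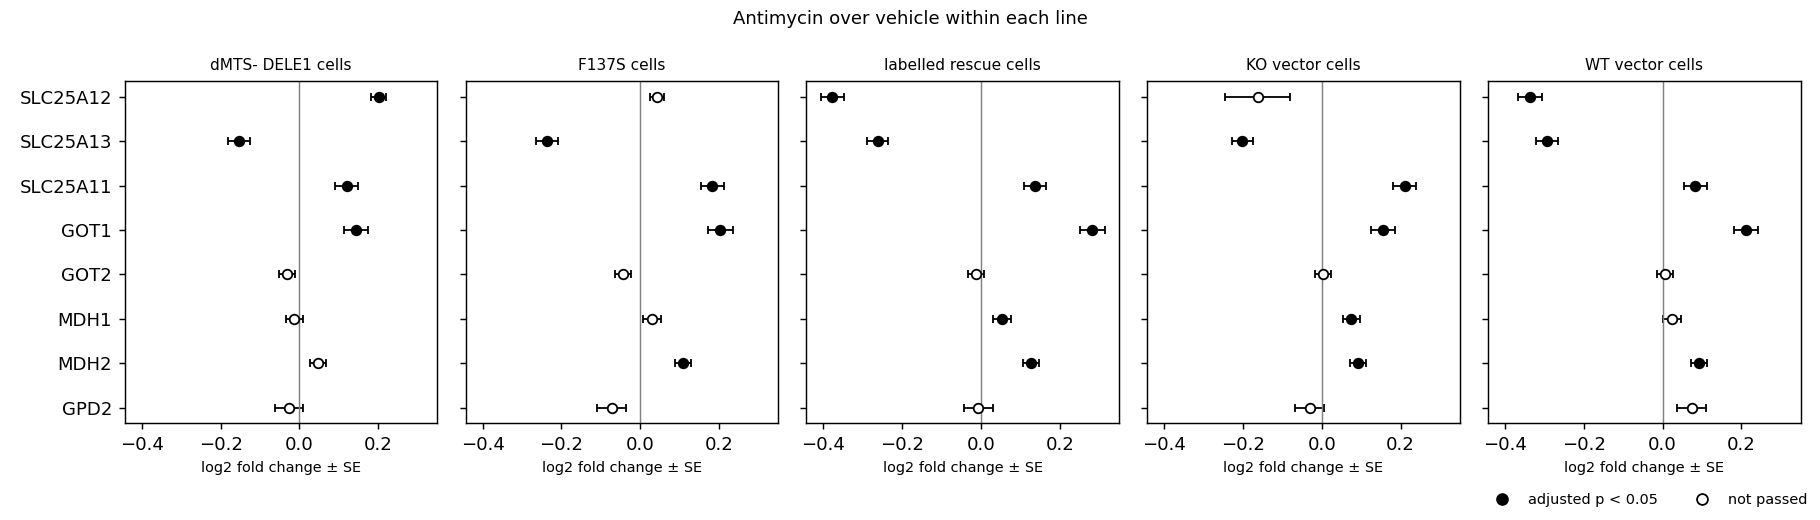
Log2 fold change ± SE of antimycin over vehicle for the 8 members in 5 lines, with filled points for an edgeR adjusted p < 0.05. SLC25A13 lies left of 0 and SLC25A11 and GOT1 lie right of 0 in every panel, while SLC25A12 lies left of 0 in WT-vector cells (-0.34) and right of it in dMTS-DELE1 cells (0.20).

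By edgeR SLC25A12 was the only member called for a difference of response between lines. The response in F137S cells minus that in WT-vector cells was 0.38 ± 0.04 on the log2 scale (edgeR adjusted p = 9.3e-13), where 0.717% of tested genes had a higher and 0.771% a lower response. In F137S cells alone SLC25A12 did not pass (0.04 ± 0.02, edgeR adjusted p = 0.051), though the 4 antimycin libraries lay above the 4 vehicle libraries. The response in dMTS-DELE1 cells minus that in F137S cells was 0.16 ± 0.03 (edgeR adjusted p = 6.4e-06), where 8.24% of tested genes had a higher and 3.70% a lower response. SLC25A12 RNA in WT-vector cells comes from the native gene, whereas F137S and dMTS-DELE1 cells were both given an SLC25A12-F137S cDNA. The difference of F137S from WT-vector cells therefore compares RNAs of different origin. DELE1, the other introduced gene in dMTS-DELE1 cells, averaged 6087 ± 56.1 CPM under antimycin and 5344 ± 84.7 in vehicle there (SD). What part the introduced cDNAs have in these SLC25A12 differences was not tested.

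For the other 7 members, 0 response differences between lines were called by edgeR in these contrasts. Beside the shares of all tested genes called in each contrast, a count of 0 does not set these members apart. At an unadjusted p < 0.05 by edgeR, 2 of the 7 passed for F137S minus WT-vector cells and 2 for dMTS-DELE1 minus F137S cells. For KO-vector minus WT-vector cells edgeR and DESeq2 called 0 of 8 members, with 3 at an unadjusted p < 0.05 by edgeR, where 1.57% of tested genes were called. SLC25A11 came nearest (0.13 ± 0.04, edgeR adjusted p = 0.096), and its 95% interval ran from 0.05 to 0.21. For SLC25A13 the difference was 0.09 ± 0.04 (edgeR adjusted p = 0.29). For F137S minus KO-vector cells edgeR called 0 genes of 16739 (0% of those tested), with 711 at an unadjusted p < 0.05, and DESeq2's Wald test also called 0. For the labelled libraries minus KO-vector cells edgeR called 0 of 8 members, with 1 at an unadjusted p < 0.05, where 1.65% of tested genes were called, and DESeq2 called 1, GOT1.

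Levels can be set against each other only per length. In WT-vector cells in vehicle, and per kilobase of the main GENCODE 29 transcript, MDH2 stood highest at 187 ± 3.30 CPM per kilobase. MDH1 followed at 148 ± 0.855, GOT2 at 137.1 ± 3.29, SLC25A11 at 61.7 ± 1.36 and SLC25A13 at 42.2 ± 0.980. GOT1 stood at 25.0 ± 0.346, SLC25A12 at 13.0 ± 0.612 and GPD2 at 11.3 ± 0.428 CPM per kilobase (SD, n = 4). Each neighbour in this order was apart by more than the sum of the 2 SDs. The native aspartate carrier RNA was thus mostly SLC25A13, with a ratio of SLC25A12 to SLC25A13 of 0.308 ± 0.0190 per kilobase. In KO-vector cells the ratio was 0.0279 ± 0.00179.

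The ratio of the cytosolic to the mitochondrial aminotransferase separated dMTS-DELE1 cells from the rest. GOT1 over GOT2 per kilobase was 0.271 ± 0.00493 in dMTS-DELE1 cells, 0.193 ± 0.00601 in F137S cells and 0.182 ± 0.00271 in WT-vector cells in vehicle. Under antimycin it was 0.306 ± 0.00840 in dMTS-DELE1 cells, 0.229 ± 0.00721 in F137S cells and 0.210 ± 0.00804 in WT-vector cells. In vehicle the lowest dMTS-DELE1 library (0.264) lay above the highest F137S library (0.199). MDH1 over MDH2 per kilobase stayed between 0.714 and 0.797 as group means. The ratios are descriptions without a test of their own.

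**Figure D5:**
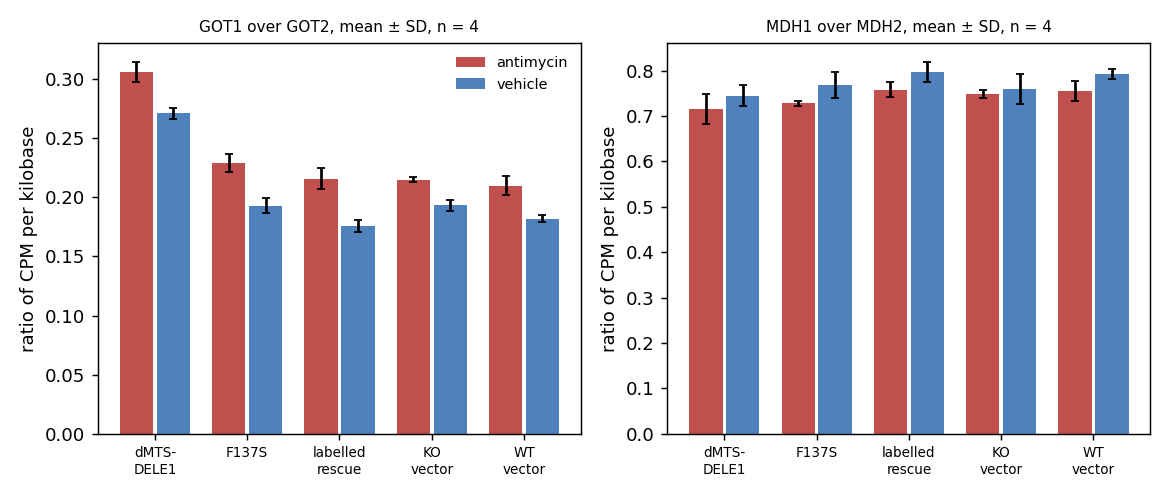
Ratio of CPM per kilobase for GOT1 over GOT2 (left) and MDH1 over MDH2 (right), cytosolic over mitochondrial, as bars from 0 with the SD of 4 libraries and antimycin left of vehicle. GOT1 over GOT2 is highest in dMTS-DELE1 cells, at 0.306 under antimycin and 0.271 in vehicle, and MDH1 over MDH2 ranges from 0.714 to 0.797.

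Genes around the shuttle were read as 5 lists, also chosen with earlier results of these data known, so their counts are descriptions. Among 13 tested enzymes of malate, oxaloacetate and glutamate, 10 were lower and 0 higher in KO-vector than in WT-vector cells in vehicle, where 25.6% of all tested genes were lower and 22.7% higher. The median log2 fold change of the list was -0.16, against -0.01 over all genes. OGDH, a subunit of the 2-oxoglutarate dehydrogenase complex (-0.39 ± 0.03), ACLY, which makes cytosolic acetyl-CoA and oxaloacetate (-0.35 ± 0.02), and GLUD1, glutamate dehydrogenase (-0.28 ± 0.02), led. Under antimycin in WT-vector cells 4 of the 13 rose and 1 fell, where 25.5% of all tested genes rose and 26.4% fell. PCK2, the mitochondrial phosphoenolpyruvate carboxykinase (1.21 ± 0.05), GPT2, mitochondrial alanine aminotransferase (0.46 ± 0.03), and OGDH (0.23 ± 0.03) led those that rose. ME1, the cytosolic malic enzyme, fell (-0.12 ± 0.04). In dMTS-DELE1 against F137S cells in vehicle 3 were higher, PCK2 (0.54 ± 0.05), GPT2 (0.49 ± 0.03) and ME1 (0.14 ± 0.04), and 5 lower, among them ACLY (-0.30 ± 0.02) and FH, fumarase (-0.15 ± 0.03). Over all tested genes 17.7% were higher and 24.1% lower there.

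Of 13 tested enzymes that use or make derivatives of aspartate, 4 rose and 7 fell under antimycin in WT-vector cells (all tested genes, 25.5% and 26.4%), with a median log2 fold change of -0.06 against 0.01 over all genes. ASNS, asparagine synthetase (1.47 ± 0.14), and the urea cycle enzymes ASL (0.37 ± 0.07) and ASS1 (0.19 ± 0.04) rose most. NAT8L, which makes N-acetylaspartate (-0.40 ± 0.04), ADSS2, of AMP synthesis (-0.38 ± 0.02), and DHODH, of pyrimidine synthesis (-0.20 ± 0.05), fell most. In KO-vector against WT-vector cells in vehicle 7 were lower and 2 higher, beside 25.6% and 22.7% of all tested genes. ASNS (-0.37 ± 0.15) and DHODH (-0.24 ± 0.05) were among the lower ones, and NAT8L (0.52 ± 0.04) was among the higher ones. In dMTS-DELE1 against F137S cells in vehicle 8 were lower, among them ASL (-0.27 ± 0.07) and PAICS, of purine synthesis (-0.18 ± 0.02), beside 24.1% of all tested genes. The 2 that were higher were ASNS (0.62 ± 0.15) and ASS1 (0.56 ± 0.04), beside 17.7% of all tested genes.

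Of 12 tested carriers of shuttle substrates, 7 rose and 4 fell under antimycin in WT-vector cells, where 25.5% of all tested genes rose and 26.4% fell. The median log2 fold change of the list was 0.17, against 0.01 over all genes. UCP2 (0.31 ± 0.04), SLC25A22, a mitochondrial glutamate carrier (0.28 ± 0.04), and SLC25A51, a mitochondrial NAD carrier (0.26 ± 0.06), rose most. The plasma membrane glutamate and aspartate transporter SLC1A1 fell (-0.54 ± 0.09), as did SLC25A21 (-0.32 ± 0.12). SLC25A52 was also called lower, with 2 counts over the 4 antimycin libraries and 13 over the 4 vehicle libraries. In KO-vector against WT-vector cells in vehicle 4 were higher and 2 lower, beside 22.7% and 25.6% of all tested genes. The lower ones were SLC1A3 (-0.74 ± 0.04) and SLC1A1 (-0.24 ± 0.09). SLC25A10 (0.20 ± 0.05), SLC25A51 (0.19 ± 0.06) and MPC2 (0.16 ± 0.04) led the higher ones. In dMTS-DELE1 against F137S cells in vehicle 7 were lower and 0 higher, beside 24.1% and 17.7% of all tested genes. The lower ones were led by SLC1A1 (-0.58 ± 0.09), SLC25A10, the dicarboxylate carrier (-0.46 ± 0.05), and SLC25A1, the citrate carrier (-0.36 ± 0.03).

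Of 6 tested partners in cytosolic NADH reoxidation, 3 were lower and 0 higher in KO-vector than in WT-vector cells in vehicle, where 25.6% of all tested genes were lower and 22.7% higher. The 3 were LDHA (-0.34 ± 0.02) and LDHB (-0.12 ± 0.02), the lactate dehydrogenase subunits, and GPD1L (-0.25 ± 0.04). The same 3 genes were lower in dMTS-DELE1 than in F137S cells in vehicle, LDHA by 0.30 ± 0.02 on the log2 scale, with MDH1B (0.61 ± 0.18) and LDHC (0.24 ± 0.08) higher. Over all tested genes 24.1% were lower and 17.7% higher there. Under antimycin in WT-vector cells LDHA fell (-0.11 ± 0.02), GPD1L rose (0.15 ± 0.03) and 4 did not pass, where 26.4% of all tested genes fell and 25.5% rose. GPD1, the cytosolic partner of GPD2, stood at 0.954 CPM in WT-vector cells in vehicle.

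Of 10 tested genes of the NAD pool, 6 were lower and 2 higher in KO-vector than in WT-vector cells in vehicle, where 25.6% of all tested genes were lower and 22.7% higher. NAPRT (-2.27 ± 0.48), NAMPT, the salvage enzyme that makes nicotinamide mononucleotide (-0.73 ± 0.02), and NADSYN1 (-0.36 ± 0.05) were lower. NMNAT2 (0.85 ± 0.09) and NMNAT1 (0.79 ± 0.06), which make NAD from that mononucleotide, were higher. NAPRT varied widely within groups, at 1.28 ± 0.931 CPM in KO-vector cells and 6.20 ± 2.22 CPM in WT-vector cells. Under antimycin in WT-vector cells 4 rose and 2 fell, beside 25.5% and 26.4% of all tested genes, with NMNAT2 (0.22 ± 0.09) highest and NAMPT (-0.41 ± 0.02) lowest. In dMTS-DELE1 against F137S cells in vehicle 3 were higher, led by NMNAT2 (0.58 ± 0.08), and 2 lower, NADSYN1 (-0.19 ± 0.05) and NNT, the transhydrogenase (-0.17 ± 0.03). Of all tested genes 17.7% were higher and 24.1% lower in that comparison. In F137S against KO-vector cells edgeR called 0 of the 54 tested genes of the 5 lists in either treatment. Of all tested genes 0.0836% were called in vehicle and 0.114% under antimycin, so a count of 0 says little about the lists. At an unadjusted p < 0.05 by edgeR, 10 of the 54 passed in vehicle and 3 under antimycin.

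The genes whose group means of log2 CPM followed each member most closely over the 10 groups are a description, as groups of 1 line share their cells. For GOT1 they were RGS3 (Pearson r = 0.996), CPSF4 (0.987) and SLC38A2, an amino acid transporter (0.987). For SLC25A11 they were PLEKHJ1 (0.999), ELOVL1 (0.997) and SLC6A6 (0.996), and for SLC25A13 ERICH1 (0.996), PRPF4 (0.995) and GRPEL1 (0.994). For MDH2 they were CYC1, the cytochrome c1 gene of complex III (0.997), NME3 (0.995) and ACTG1 (0.995). For SLC25A12 they were BNIP3L (0.846), ZDHHC13 (0.813) and DUSP12 (0.802), where 4 of the 10 groups had the introduced F137S cDNA. Over the other 6 groups they were MYO9B (0.9997), HNRNPA3 (0.9997) and PLS3 (0.9996). Those groups are WT-vector cells, KO-vector cells and the labelled libraries, and SLC25A12 was 12.5-fold lower in KO-vector than in WT-vector cells in vehicle. A high r there can follow from that difference of lines alone.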

How the data were processed

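The authors deposited raw read counts per gene symbol for 40 libraries of poly(A) RNA. HISAT2 2.1.0 and featureCounts 2.0.6 with hg38 are named, per the submitters' processing notes. Settings, gene models and strand mode were not given in the sources used here, so reads of overlapping genes may be shared. The table held 0 columns of samples outside the series. Counts were filtered with filterByExpr (16739 genes), scaled by TMM and fitted in edgeR 4.0.16 (R 4.3.3, limma 3.58.1, statmod 1.5.0) by robust quasi-likelihood over all 40 libraries, each group having its own coefficient. The common biological coefficient of variation was 0.0509. Each comparison was a contrast of that fit, 20 in all. The standard error was the log2 fold change divided by the square root of the F statistic. It understates the sampling error for SLC25A12 in comparisons with KO-vector cells, where counts were low.

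All 8 members were named in every comparison, and of the lists up to 3 called genes each way by size of change in 4 comparisons, where the text may name fewer. Some list members are counted but not reported here by name. GPD1 was named after its value was seen. Label-check genes had an absolute log2 fold change of at least 2, neighbours were the 5 tested genes on each side, and most alike genes were the 3 with the highest Pearson r at a mean log2 CPM of at least 1. The members and lists were chosen with earlier results of these data known. Gene positions and lengths come from GENCODE 29, and promoters and neighbours from RefSeq on GRCh38.p14. Alternatives were DESeq2 1.42.0 size factors and Wald test, no filter, only the compared groups, the replicate number as a block, a minimum log2 fold change of 0.32 either way and each library left out. Leaving out the 8 libraries labelled as knockout plus SLC25A12-WT, and scaling without SLC25A12 and DELE1, were added after the data were seen. The procedure was checked on simulated counts.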

Additional observations from a re-analysis of the deposited data

Results flagged for a closer look

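SLC25A12 RNA changed differently under antimycin between lines, of which F137S and dMTS-DELE1 cells were given an SLC25A12-F137S cDNA. The log2 response in F137S cells exceeded that in WT-vector cells by 0.379, and that in dMTS-DELE1 cells exceeded that in F137S cells by 0.159, both past the edgeR threshold for the difference itself.

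In 4 of 80 sets of a gene and a group of 4 libraries, 1 library stood far from the other 3. Its gap to the nearest library, as a share of the group's whole range, was above the Dixon critical value for 4 libraries in each, and chance flags about 1 in 20 such sets. For SLC25A12 in KO-vector cells in vehicle it was the highest library, at 3.43 CPM against 2.96 to 2.99 (share 0.942). For GOT1 in the same group it was the highest library, at 73.6 CPM against 70.7 to 71.1 (share 0.874). For GOT1 in the antimycin libraries labelled KO plus SLC25A12-WT it was the lowest library, at 83.1 CPM against 87.4 to 88.3 (share 0.8295). For GPD2 in dMTS-DELE1 cells under antimycin it was the lowest library, at 69.2 CPM against 75.9 to 76.9 (share 0.873).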

How the results depend on the processing

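Across 160 values of a member in a comparison, no call changed direction. Most member changes were small. With a log2 fold change of at least 0.32 either way also required, antimycin calls numbered 0 in dMTS-DELE1, F137S and KO-vector cells, 1 in the labelled libraries and 1 in WT-vector cells. Calls then numbered 2 in vehicle and 2 under antimycin for dMTS-DELE1 against F137S cells, 2 and 1 for KO-vector against WT-vector cells, 2 and 1 for the labelled libraries against KO-vector cells, and 0 for the response of dMTS-DELE1 minus F137S cells. Each of these counts above 0 included SLC25A12. The share of all tested genes under this rule was not computed, so the counts have no background beside them. DESeq2's Wald test called 1 member, GOT1, in the response of the labelled libraries minus KO-vector cells (adjusted p = 0.0498). With each library left out in turn, the response of dMTS-DELE1 minus F137S cells gave 1 to 2 called members, the second being MDH2 without the third F137S antimycin or the second F137S vehicle library. The knockout effect on SLC25A12 in vehicle ran from -3.70 to -3.63. The cause of these changes was not tested.

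The SLC25A12 response in F137S cells passed with DESeq2 size factors (adjusted p = 0.0462), with the Wald test (0.0130) and without any of 5 single libraries (the second or the third vehicle library, or the first, the second or the third antimycin library). Over all left-out libraries its edgeR adjusted p ran from 0.013 to 0.11. GPD2 in WT-vector cells passed without the first vehicle library (0.0117) or the second antimycin library (0.0074). MDH2 in dMTS-DELE1 cells passed with DESeq2 size factors (0.0285) and the Wald test (0.0260), without the labelled libraries (0.0478) and without the second vehicle library (0.0498). GOT2 in F137S cells passed without the filter (0.0432) and without the labelled libraries (0.0400). GPD2 in the labelled libraries against KO-vector cells under antimycin was lost without the fourth labelled library (0.0777).

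The replicate block changed 0 of the 160 member calls, and 6 members stayed called for KO-vector against WT-vector cells in vehicle, with SLC25A12 at -3.65. Residuals of libraries with the same number correlated at -0.0392 to 0.0510, so the number does not pair the libraries. Over all genes, F137S against KO-vector cells gave 14 calls in vehicle and 19 under antimycin with edgeR, and 27 and 33 with DESeq2. The response of KO-vector minus WT-vector cells had 53.4% of its calls higher with TMM and 42.2% with DESeq2 size factors, and that of the labelled libraries minus KO-vector cells 42.8% and 57.3%.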
